A study of Mus musculus with 20 samples.

Results

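The retinal pigment epithelium is the pigmented sheet of cells on which the photoreceptors rest, and 10 of its genes were followed in the messenger RNA of 20 mouse retinas. The genes were taken by name from a list of pigment epithelium and melanin genes, and all 10 were found among the 35006 genes of the files, of which 26509 had at least 1 count. Rpe65, Lrat, Rgr, Rdh5, Ttr and Best1 are the 6 pigment epithelium genes of the list, and Tyr, Tyrp1, Dct and Slc45a2 are the 4 melanin genes. The question was whether the 10 genes rose and fell together between libraries, as RNA from pigmented tissue adhering to a dissected retina would.

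Each library came from 1 retina of 1 wild-type C57BL/6J mouse, an inbred black strain, and all mice were killed after the same 5 days of drinking plain water or NACET. NACET is N-acetylcysteine ethyl ester, a cell-permeable source of cysteine, given in the water at 50 mg per kg of body weight per day. The young control group held 4 mice of 119 days (2 labelled male, 2 labelled female), and the young NACET group 6 mice, 4 labelled male at 129 days and 2 labelled female at 119 days, of which replicate 6 carries a batch tag of 129 days. The old control group held 4 mice of 668 days labelled male, and the old NACET group 6 mice labelled male, 2 each at 668, 581 and 574 days. The study's methods describe male mice alone and a dissection of the retina from the eye, with no step that names the pigment epithelium. As a check on the dissection, the study compared markers of the main cell types of the retina. It reported no significant difference in how these cells were represented. Counts assigned to genes, in units of 1000000, ranged from 17.7 to 31.08 per library with a median of 20.9. The library labelled old control replicate 4 held 59555 counts of Xist, an RNA made from the inactive X chromosome of females, and 1 count of Y-linked genes, which goes against its label of male. Photoreceptor and inner retinal markers were abundant in every library: 9 genes of the neural retina, among them rhodopsin, summed to between 49145 and 75891 CPM (counts scaled to a library of 1000000 gene counts).

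The pigment epithelium nourishes the photoreceptors, engulfs their shed tips and runs the visual cycle, in which spent all-trans retinal from the photoreceptors is turned back into the cis form that rhodopsin needs. Its cells also hold melanin, which is built from tyrosine in organelles called melanosomes by tyrosinase and the related enzymes Tyrp1 and Dct. In the mouse eye the same pigment is made by melanocytes of the choroid and iris and by the pigmented layers of the ciliary body and iris, so that melanin genes mark more tissues than visual cycle genes do.

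Rpe65, the isomerase that makes the cis retinoid of the visual cycle, lies at chr3:159262197-159287763 on the plus strand of the mm9 genome. Its level in the 4 young control libraries was 4.38, 3.06, 3.31 and 15.7 CPM. In the 6 young NACET libraries it was 12.0, 9.38, 14.5, 18.1, 21.7 and 21.8 CPM. Replicates 1 to 3 of the young controls were below every young NACET library, whereas replicate 4 stood among them. The 4 old control libraries had 14.9, 21.5, 16.6 and 8.76 CPM, and the 6 old NACET libraries 9.26, 10.7, 4.19, 14.1, 11.9 and 7.88 CPM. The groups overlapped in all 4 comparisons. Over the groups, the means ± SD were 16.3 ± 5.16 CPM in young NACET (n = 6), 15.4 ± 5.24 in old control (n = 4), 9.67 ± 3.43 in old NACET (n = 6) and 6.61 ± 6.07 in young control (n = 4), so that the first pair in this order differed by less than its spread. In bulk tissue, fewer pigment epithelial cells and less RNA per cell cannot be told apart.

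The other visual cycle genes of the list had the same isolated young control. Lrat (chr3:82696501-82707895, minus strand), which esterifies retinol and so supplies the substrate of Rpe65, was at 2.94, 2.58, 2.00 and 14.8 CPM in the young controls. Its range was 5.34 to 13.1 CPM in young NACET (median 10.3), 6.48 to 12.1 in old control and 1.90 to 7.55 in old NACET (median 5.80). Rgr (chr14:37850676-37862150, minus strand), an opsin of the pigment epithelium and of Müller glia that binds all-trans retinal, was at 17.7, 15.3, 13.1 and 62.3 CPM in the young controls. Young NACET libraries held 33.3 to 72.9 CPM of Rgr (median 51.6), old controls 35.3 to 80.6 and old NACET libraries 12.6 to 47.7 (median 31.5). For both genes replicate 4 of the young controls stood far above the other libraries of its group, and old NACET replicate 3 was the lowest of all 20.

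Rdh5 (chr10:128350649-128359944, minus strand), the dehydrogenase that oxidises cis-retinol in the last step of the cycle, was at 4.38, 5.60, 4.49 and 15.1 CPM in the young controls and ranged over 20 libraries from 4.38 to 17.8 CPM. In the annotation used here 25.6% of its exon bases are shared with Bloc1s1, the neighbouring gene, and its counts are uncertain to that extent. Ttr (chr18:20823751-20832825, plus strand), transthyretin, the thyroxine carrier that is secreted by the pigment epithelium and the ciliary body, was at 20.2, 16.3, 13.0 and 69.0 CPM in the young controls. The old controls held 53.5, 81.2, 61.7 and 39.0 CPM of Ttr, and the old NACET libraries 24.2, 30.5, 10.3, 40.7, 36.8 and 28.0. Old NACET replicate 4 was the only library of its group above the lowest old control.

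Best1 (chr19:10059664-10076123, minus strand), the bestrophin chloride channel of the basolateral membrane of the pigment epithelium, did not share this pattern. It had 8 to 37 counts per library, or 0.348 to 1.19 CPM, and the group means ran from 0.615 ± 0.183 CPM in young control (n = 4) to 0.904 ± 0.234 in old control (n = 4). Young control replicate 4, the highest of its group for all 10 genes, had 0.744 CPM of Best1 against 0.722 in replicate 1. The coefficient of variation of Best1 over 20 libraries was 28.5%, where counting error alone gives 24.9%. For Rpe65 these figures were 49.4% and 6.17%, and for Rgr 48.4% and 3.33%, so that little of the spread of Best1 could be seen above counting error at this depth.

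Tyrp1, Dct and Tyr varied more between libraries, with coefficients of variation of 118%, 95.7% and 72.7%, while Slc45a2 (51.0%) was close to Lrat (52.6%) and Ttr (50.4%). Dct (chr14:118412014-118451468, minus strand), dopachrome tautomerase, was at 12.2, 6.16, 8.58 and 60.1 CPM in the young controls and at 42.1, 32.1, 7.66 and 7.60 CPM in the old controls. It ranged from 7.55 to 19.6 CPM in young NACET (median 13.3) and from 2.07 to 13.1 CPM in old NACET (median 6.91). Young control replicate 4 and old control replicates 1 and 2 were thus the only libraries above 20 CPM, with the other 2 old controls among the NACET libraries. Tyrp1 (chr4:80480027-80497623, plus strand), which acts beside tyrosinase in the melanosome, showed the same 3 libraries on top, with 32.0 CPM in young control replicate 4 and 19.5 and 10.8 CPM in old control replicates 1 and 2, against 1.01 to 8.66 CPM in all others. That young control held 25.6% of the summed CPM of Tyrp1 over the 20 libraries and 20.0% of that of Dct, against 8.95% for the highest library of Rpe65.

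Tyr (chr7:94574910-94641943, minus strand), tyrosinase, the rate-limiting enzyme of melanin synthesis, was at 0.618, 0.685, 0.827 and 5.77 CPM in the young controls and between 0.625 and 3.58 CPM elsewhere. Slc45a2 (chr15:10930476-10958988, plus strand), a melanosomal transporter, had 4 to 26 counts per library, or 0.161 to 1.21 CPM, and counting error alone gives a coefficient of variation of 30.5% where 51.0% was seen. Per kilobase of exon, the mean level over the 20 libraries was 34.3 CPM for Ttr, 25.2 for Rgr, 7.60 for Rpe65, 6.05 for Dct, 3.53 for Rdh5, 2.21 for Tyrp1, 1.40 for Lrat, 0.348 for Best1, 0.341 for Tyr and 0.169 for Slc45a2. On this length-corrected scale of level, the melanin genes other than Dct and Tyrp1 lay with Best1 at the bottom.

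**Figure D1:**
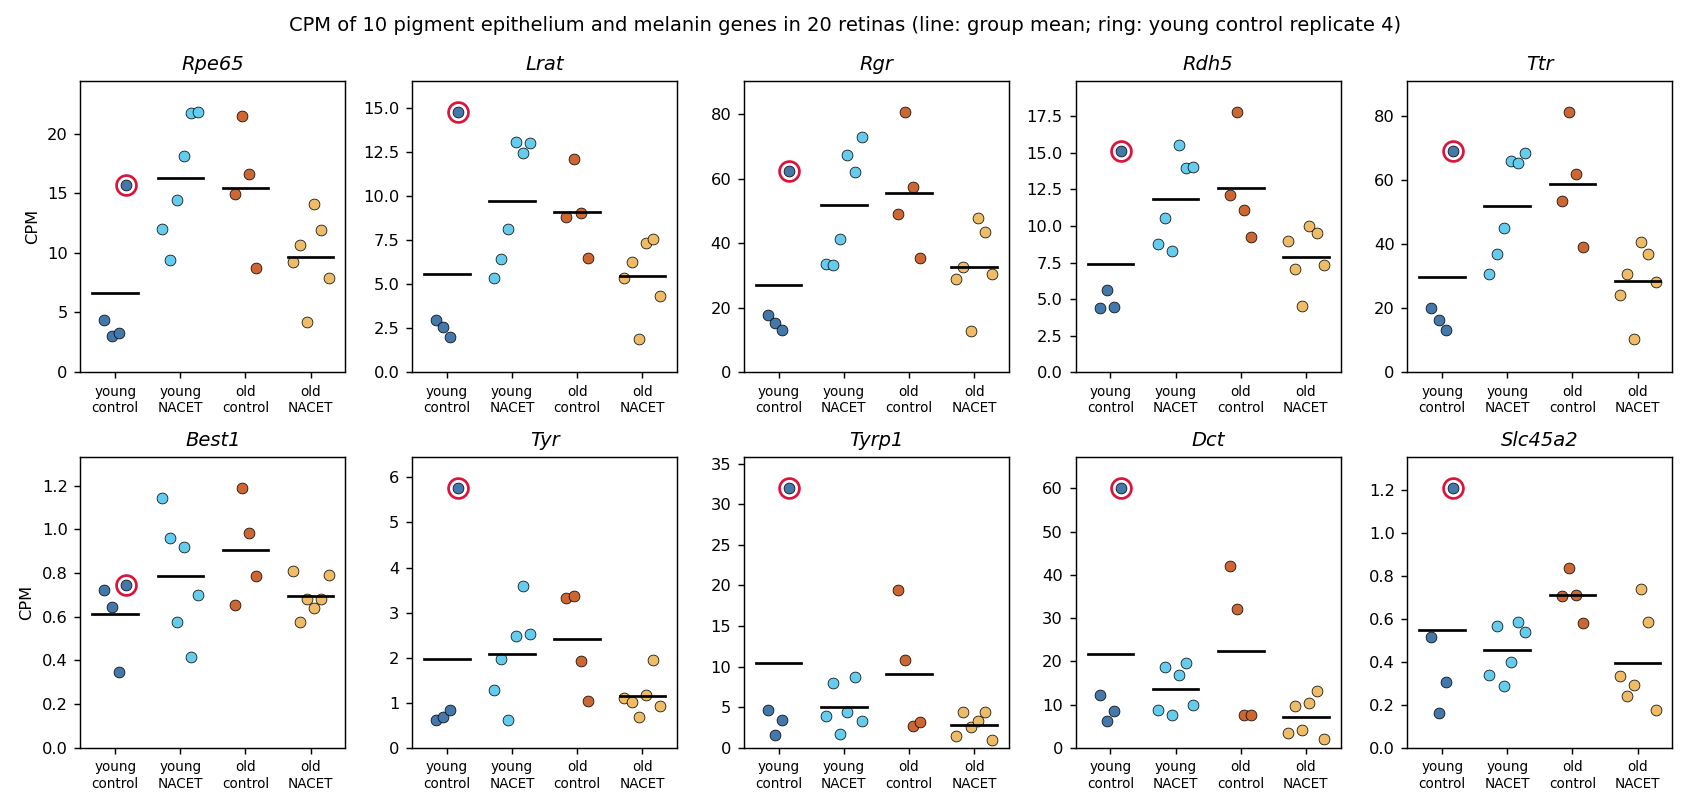
CPM of each gene (vertical axis, linear from 0) in each library (points), by group (horizontal axis), with the group mean as a line and young control replicate 4 ringed. That replicate is far above the other 3 young controls for every gene but Best1 and Slc45a2, for which it is highest by a smaller gap. Old NACET libraries lie low for Dct and Tyrp1.

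Promoter sequences were drawn from RefSeq on the GRCm38.p6 assembly, as 250 bases before to 50 bases after the start of each gene, and 8 of the 10 genes were used. The sequences of the 3 tyrosinase family genes are shown because all 3 were highest in young control replicate 4, with the longest run of bases that all 3 share in capitals.
Tyr (chr7:87493463-87493762, minus strand): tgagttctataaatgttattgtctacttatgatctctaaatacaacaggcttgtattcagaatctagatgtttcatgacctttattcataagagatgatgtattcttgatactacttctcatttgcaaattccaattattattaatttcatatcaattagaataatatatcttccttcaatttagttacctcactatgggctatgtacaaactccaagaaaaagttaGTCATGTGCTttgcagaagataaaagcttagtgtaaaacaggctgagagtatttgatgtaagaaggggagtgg
Tyrp1 (chr4:80833963-80834262, plus strand): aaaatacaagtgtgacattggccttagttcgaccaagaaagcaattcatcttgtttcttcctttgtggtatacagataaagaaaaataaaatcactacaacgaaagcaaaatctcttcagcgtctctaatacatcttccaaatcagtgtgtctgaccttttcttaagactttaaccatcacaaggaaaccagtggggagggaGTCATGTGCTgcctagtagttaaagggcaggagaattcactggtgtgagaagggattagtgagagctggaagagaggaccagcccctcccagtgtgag
Dct (chr14:118052197-118052496, minus strand): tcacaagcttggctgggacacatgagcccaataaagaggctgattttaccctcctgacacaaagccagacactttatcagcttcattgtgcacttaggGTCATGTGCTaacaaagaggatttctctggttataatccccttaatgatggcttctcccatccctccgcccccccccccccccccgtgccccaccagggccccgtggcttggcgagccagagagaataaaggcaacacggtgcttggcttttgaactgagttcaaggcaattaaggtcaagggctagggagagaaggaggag
The shared run is GTCATGTGCT, 10 bases long, at -23 to -14 from the start of Tyr, -48 to -39 of Tyrp1 and -152 to -143 of Dct. It holds TCATGTG, the core of the M-box that is known as a binding site of Mitf, the master regulator of pigment cells. On either strand, GTCATGTGCT was found in 61 of 32817 promoters (0.186%) and TCATGTG in 1239 (3.78%). Neither was found in the promoters of Rpe65, Lrat, Rgr, Rdh5 or Best1. The promoter of Rpe65, the reference gene of the ratios given here, is shown with GGATTA in capitals, the letters that homeodomain factors of the OTX family are known to bind.
Rpe65 (chr3:159598931-159599230, plus strand): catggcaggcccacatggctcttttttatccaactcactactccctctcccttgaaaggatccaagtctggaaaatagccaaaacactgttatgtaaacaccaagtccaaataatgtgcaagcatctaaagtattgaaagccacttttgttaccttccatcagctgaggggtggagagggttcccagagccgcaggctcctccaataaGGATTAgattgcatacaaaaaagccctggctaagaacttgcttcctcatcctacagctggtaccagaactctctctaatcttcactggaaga
GGATTA was at -42 to -37 in Rpe65 and, on the opposite strand, in the windows of Rgr and Best1, and was not found in those of Lrat and Rdh5, and 7.06% of all promoters held it on either strand. Tyrp1 and Dct held it too. CACGTG, the palindromic E-box, was in none of the 8 and in 7.15% of all promoters. A match is a string of letters in a window and not a measured site.

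The first test asked whether the genes moved together between libraries. Over 20 libraries, the log2 CPM of 5 pigment epithelium genes, Rpe65, Lrat, Rgr, Rdh5 and Ttr, were tightly correlated in all 10 of their pairs, with Pearson's r from 0.92 to 0.98 (median 0.96) and Spearman's rho from 0.88 to 0.98. Rgr and Ttr were the closest pair (r = 0.98), followed by Lrat and Rgr (r = 0.98). Taking out the group means left r at 0.89 to 0.99. Leaving out the 2 libraries farthest from the median of the first gene of each pair left it at 0.91 to 0.97. For these pairs the libraries left out were young control replicates 2 and 3, or young control replicate 3 and old NACET replicate 3. Young control replicate 4 thus stayed in. Within the 6 young NACET libraries alone r was 0.70 to 1.00, and within the 6 old NACET libraries 0.91 to 0.99. The relation therefore stood within groups as well as between them.

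The 4 melanin genes formed a second, looser group. Their 6 pairs had r from 0.74 to 0.95 and rho from 0.65 to 0.97, with Tyrp1 and Dct at the top (r = 0.95), and without the 2 farthest libraries r was 0.61 to 0.92. Between the 5 pigment epithelium genes and the melanin genes, r was 0.41 to 0.88 over 20 pairs. Tyr was the melanin gene nearest to the visual cycle genes, with r from 0.75 to 0.88 and the highest value with Rdh5. Slc45a2 had r of 0.59 to 0.67 with them, Dct 0.48 to 0.61 and Tyrp1 0.41 to 0.52. Within young NACET libraries alone, Tyrp1 and the 5 genes had r of -0.07 to 0.46. Best1 had r of 0.05 to 0.39 with the other 9 genes.

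In a two-sided permutation test with 100000 permutations, 34 of 45 pairs passed after Benjamini-Hochberg adjustment over the 45 pairs, with a smallest adjusted p of 3.75e-05, resting on the smallest p these permutations can give (1e-05). All 10 pairs of the 5 pigment epithelium genes and all 6 melanin pairs passed, as did 18 of 24 mixed pairs and 0 of 9 pairs with Best1 (adjusted p of 0.105 to 0.825 in the same permutation test). The mixed pairs that failed were the 4 of Best1 with melanin genes, and Tyrp1 with Rpe65 (r = 0.41, adjusted permutation p = 0.09) and with Rgr (r = 0.45, adjusted permutation p = 0.0612). With group means removed 31 pairs passed. Without young control replicate 4 the count within groups was 21. The 10 genes were listed together with results of these libraries known, and so the count is not independent evidence that they belong together.

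**Figure D2:**
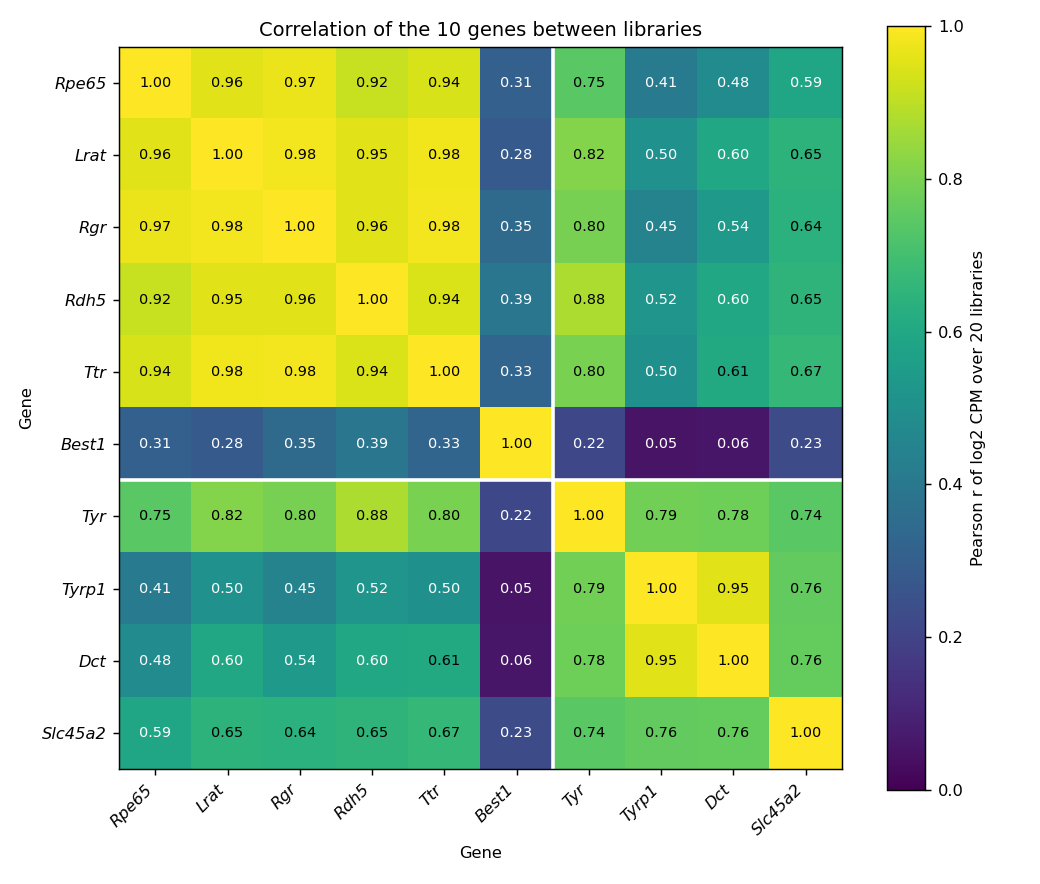
Pearson's r of log2 CPM over 20 libraries for each pair of the 10 genes, as colour and as a printed value, with white lines between pigment epithelium and melanin genes. The block of Rpe65, Lrat, Rgr, Rdh5 and Ttr lies between 0.92 and 0.98, Best1 at or below 0.39, and Tyrp1 with Dct at 0.95.

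The constancy of the ratios between genes was described next. The ratio of Rgr to Rpe65 ranged 1.78-fold over the 20 libraries, while Rpe65 itself ranged 7.13-fold. The ratio of Lrat to Rpe65 ranged 2.11-fold, that of Ttr 2.16-fold and that of Rdh5 3.15-fold. The melanin genes were far from a fixed ratio: Slc45a2 ranged 5.51-fold, Tyr 8.00-fold, Dct 14.3-fold and Tyrp1 17.6-fold relative to Rpe65, and Best1 10.5-fold. Ratios of Slc45a2, Tyr and Best1 carry the counting error of low counts.

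A straight line of each gene on Rpe65 gave its level at 0 CPM of Rpe65. This intercept was 0.134 CPM for Lrat (SE 0.802), 2.24 for Rgr (SE 2.79) and 1.62 for Ttr (SE 3.71), each within 1 SE of 0. For Rdh5 it was 2.79 CPM (SE 0.879), or 28.1% of its mean, and for Best1 0.643 CPM (SE 0.109), or 85.9% of its mean. The line accounted for 93.2% of the variance of Rgr, 88.9% of Ttr, 85.2% of Lrat and 81.9% of Rdh5, but for 45.6% of Tyr, 28.8% of Slc45a2, 17.9% of Dct, 10.6% of Tyrp1 and 6.02% of Best1. These values are descriptions with no test.

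**Figure D3:**
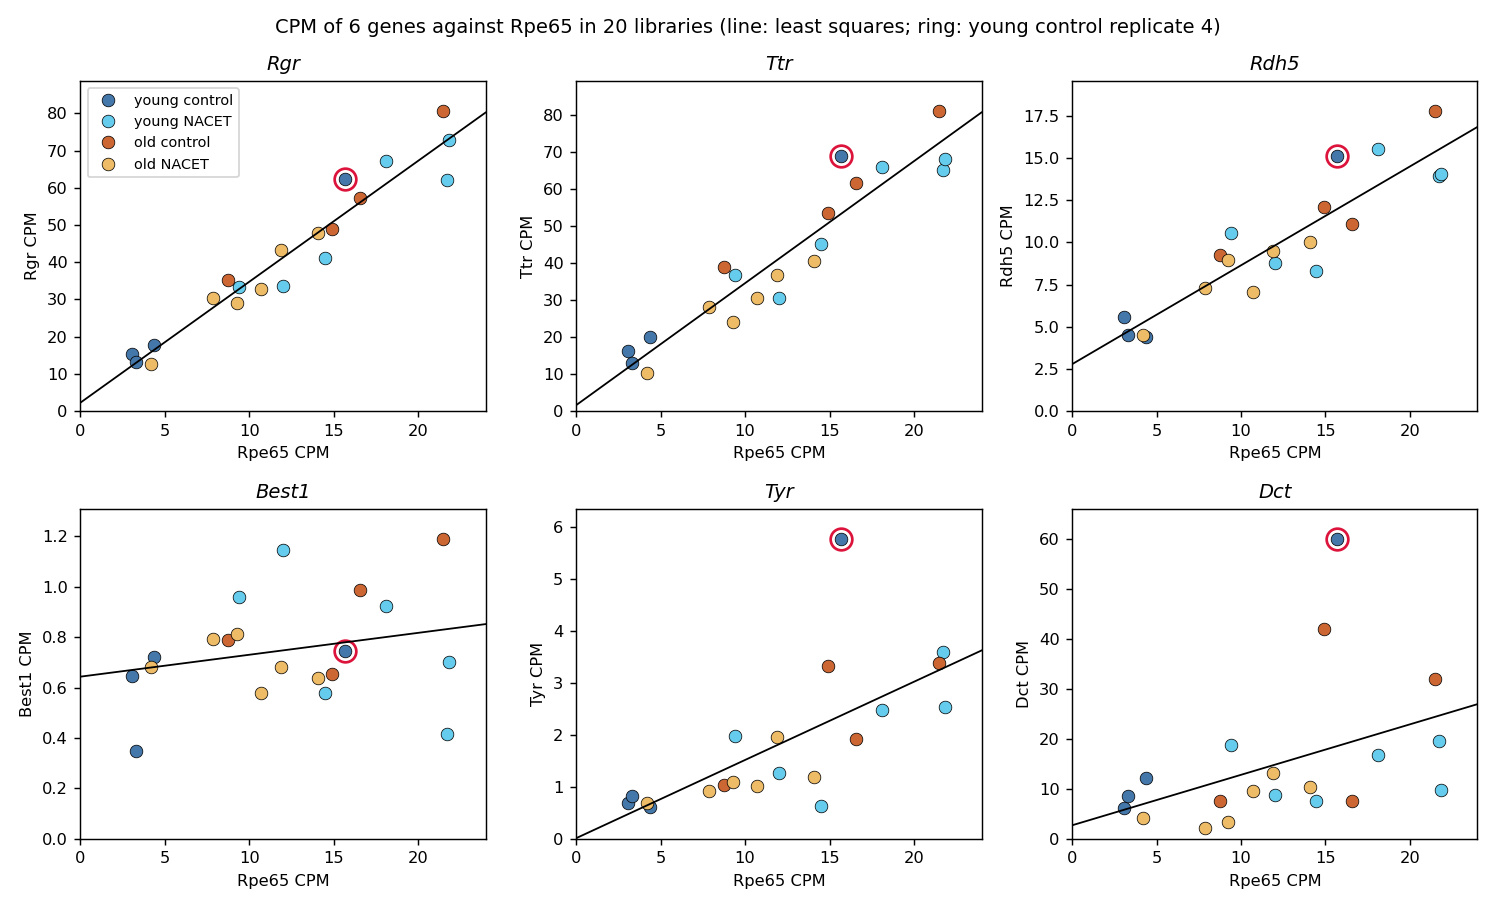
CPM of 6 genes (vertical axes) against CPM of Rpe65 (horizontal axes) in 20 libraries coloured by group, with the least squares line and young control replicate 4 ringed. Rgr, Ttr and Rdh5 follow the line in all groups, Best1 scatters widely around it, and Dct in young control replicate 4 (60.1 CPM) and old control replicates 1 and 2 lies above it.

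Ratios to Rpe65 were compared between groups in 27 exact two-sided permutation tests, of 9 genes in aging and in NACET at either age. None passed after adjustment over the 27 tests (smallest adjusted p = 0.0771 by exact permutation), and 8 were under 0.05 before adjustment. The smallest p such a test can give is 0.0286 with 4 against 4 libraries and 0.00476 with 6 against 4. In young mice the mean log2 ratio of Rgr to Rpe65 was 2.07 ± 0.16 (SD, n = 4) in controls and 1.66 ± 0.18 (n = 6) under NACET, with no overlap between the groups (exact permutation p = 0.0095, adjusted p = 0.0771). All 9 ratios were lower in the mean under NACET in young mice. The ratio of Slc45a2 was -3.45 ± 0.41 in controls and -5.01 ± 0.55 under NACET, without overlap, at the smallest p the test can give (exact permutation p = 0.00476, adjusted p = 0.0771). For Dct this ratio was 1.44 ± 0.39 in controls and -0.30 ± 0.76 under NACET, again without overlap (exact permutation p = 0.0143, adjusted p = 0.0771). In old mice the ratio of Ttr to Rpe65 was 1.95 ± 0.14 in controls and 1.53 ± 0.19 under NACET, also without overlap (exact permutation p = 0.0095, adjusted p = 0.0771). All ratios share the same denominator and are not independent of each other.

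Aging was read from old against young controls. All 6 pigment epithelium genes were higher in the old mean, by 1.19 on the log2 scale for Rpe65 (SE 0.46), 1.00 for Rgr (SE 0.44), 0.96 for Ttr (SE 0.44), 0.73 for Rdh5 (SE 0.35), 0.68 for Lrat (SE 0.52) and 0.54 for Best1 (SE 0.29). Tyr differed by 0.26 (SE 0.65), Tyrp1 by -0.26 (SE 0.81), Dct by -0.01 (SE 0.71) and Slc45a2 by 0.36 (SE 0.47). None of the 10 genes was called by edgeR's quasi-likelihood test at an adjusted p under 0.05, where 1.42% of 16484 genes were called. DESeq2 called 0 of the 10 as well, beside 721 of 16026 genes. Rpe65 (adjusted p = 0.227) and Rgr (adjusted p = 0.281) had an unadjusted p under 0.05 in edgeR, as did 2687 of the 16484 genes. The median log2 change of the 10 genes was 0.61, beside -0.01 over all genes.

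Leaving out any single library but young control replicate 4 called 0 of the 10 genes, beside 113 to 414 over all genes. That replicate stands apart on most of the same 10 genes, so a fit without it is no independent test of them. The comparison turned on this replicate. Without it, edgeR called 5 of the 10 genes as higher in old controls, beside 0.878% of 16739 genes in either direction: Rpe65 by 2.06 (SE 0.27, adjusted p = 0.00501), Lrat by 1.82 (SE 0.22, adjusted p = 0.00305), Rgr by 1.81 (SE 0.24, adjusted p = 0.00501), Ttr by 1.79 (SE 0.23, adjusted p = 0.00424) and Rdh5 by 1.33 (SE 0.21, adjusted p = 0.0118). Tyr then differed by 1.70 (SE 0.39, adjusted p = 0.079 in edgeR), and Tyrp1 by 1.42 (SE 0.62) and Dct by 1.26 (SE 0.55) in place of a difference at or below 0. With labelled males alone, 4 of the 10 were called, beside 0.41% of 16822 genes. That fit drops young control replicates 3 and 4, both labelled female, and keeps 2 young controls. As it also lacks replicate 4, it is no independent test either. It still holds old control replicate 4, whose label of male is in doubt. Young control replicate 4 stood apart for summed genes of other parts of the eye as well. Optc, Wfdc1 and Msx1, genes of the ciliary body and iris, summed to 50.5 CPM in it and to 3.06 to 3.88 CPM in the other 3 young controls. Optc alone made up 41.8 CPM of that sum. The 7 genes of choroidal vessels and stroma summed to 31.6 against 9.15 to 10.9 CPM. Of these, Col1a2, Dcn and Ogn reached 10.2, 7.21 and 6.23 CPM among the young controls. Plvap stayed at 4.79 to 5.66 CPM there and Col1a1 at or below 1.63. The melanosome genes Pmel and Mlana, named after their values were seen, were at 49.8 and 4.88 CPM in young control replicate 4, where the next highest libraries of the series had 11.4 and 3.21. Other tissue moved in the comparison of all libraries as well. Plvap, of fenestrated vessels such as those of the choroid, was higher in old controls (log2 change 0.59, SE 0.11, adjusted p = 0.0272 in edgeR). Its r with Rpe65 over the 20 libraries was 0.08. The corneal genes Dsp, Krt5 and Krt12 differed by 3.93 (SE 1.11), 3.86 (SE 1.09) and 3.74 (SE 1.11), with adjusted p of 0.107 to 0.123 in edgeR. DESeq2 called 3 of the 8 corneal genes, beside 721 of 16026 genes. The part of these tissues in the result was not tested.

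NACET in young mice was compared with the same 4 controls, so that its values share those libraries with aging, as the comparison in old mice shares the old controls. The log2 change was 1.30 for Rpe65 (SE 0.41), 0.92 for Rgr (SE 0.39), 0.80 for Lrat (SE 0.48), 0.80 for Ttr (SE 0.40), 0.68 for Rdh5 (SE 0.31) and 0.35 for Best1 (SE 0.32). It was 0.08 for Tyr (SE 0.59), -0.27 for Slc45a2 (SE 0.45), -0.69 for Dct (SE 0.52) and -1.06 for Tyrp1 (SE 0.66). The count of the 10 genes called was 0 by edgeR and 0 by DESeq2, beside 0% of 16588 genes (0 called, 724 with an unadjusted p under 0.05), and 3 of the 10 genes had an unadjusted p under 0.05. Without young control replicate 4, edgeR called 5 genes as higher under NACET: Rpe65 by 2.17 (SE 0.27, adjusted p = 0.026), Lrat by 1.94 (SE 0.30), Rgr by 1.73 (SE 0.25), Ttr by 1.64 (SE 0.25) and Rdh5 by 1.28 (SE 0.20), the last 4 at an adjusted p of 0.0408. Of 8 genes called in that fit (0.0476% of 16808), these made up 5. Tyrp1 then differed by 0.61 (SE 0.45) and Dct by 0.58 (SE 0.31), the opposite sign to the comparison of all libraries. Young control replicate 4 stands apart on most of the same 10 genes, so the fit without it is no independent test of them. Leaving out any other single library called 0 of the 10, and 0 over all genes. Corneal genes summed to 18.1 to 23.3 CPM in the young controls and to 16.0 to 420 CPM in young NACET (median 129), and their part in the result was not tested.

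Age and labelled sex were not balanced in the young groups. The 2 NACET mice labelled female, replicates 5 and 6, had the highest Rpe65 of all 20 libraries, and they also carry the age of 119 days that all young controls have. With labelled sex as a covariate, or the age in the title, or the batch tag, edgeR called 0 of the 10 genes and 0 of all 16588. The median log2 change of the 10 was then 0.68, 0.79 and 0.88 in turn, beside 0.51 without a covariate.

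In old mice all 10 genes were lower under NACET. The log2 change was -1.66 for Tyrp1 (SE 0.49), -1.65 for Dct (SE 0.50), -1.09 for Tyr (SE 0.31), -1.07 for Ttr (SE 0.26) and -0.87 for Slc45a2 (SE 0.33), and it lay between -0.79 for Rgr (SE 0.27) and -0.41 for Best1 (SE 0.22) for the other 5. In edgeR 0 of the 10 genes were called, where 0.543% of 16562 genes were. Before adjustment 9 of the 10 were under 0.05, as were 2393 of the 16562 genes. Ttr came nearest (adjusted p = 0.0799 in edgeR), and DESeq2 called 1 of the 10 genes, Tyr (adjusted p = 0.047), beside 2.25% of 16682. The median change of the 10 genes was -0.83, beside 0.00 over all genes. Every one of the 10 group means was lower under NACET, and every gene overlapped between the groups.

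The old NACET mice came from 3 ages, of which 1 matched the controls. In the 668-day mice alone, 2 under NACET against 4 controls, the median log2 change of the 10 genes was -0.99. Of the 10, 8 had an unadjusted p under 0.05, beside 1396 of 16839 genes. EdgeR called 0 of the 10 and 0 of all genes in that fit. Without the library labelled old control replicate 4, whose sex label is in doubt, the median was -0.95. Then 0 of the 10 were called, beside 15 of 16685 genes. Genes of the cornea moved in the same comparison: Krt5, Krt12 and Dsp, of its surface epithelium, were lower under NACET, with log2 changes of -4.61, -4.64 and -4.62 (adjusted p of 0.0456, 0.0489 and 0.0456 in edgeR), and 8 corneal genes summed to 23.0, 439, 33.9 and 60.8 CPM in the old controls and to 13.7 to 24.9 CPM in old NACET. Old control replicate 2, highest in corneal genes, was also highest of the series in Rgr, Ttr and Rdh5. Without this library the median log2 change of the 10 genes was -0.66, and edgeR called 0 of them, beside 8 of 16677 genes. Then 5 of the 10 had an unadjusted p under 0.05, beside 1730 of 16677 genes. Lens genes summed to 889 CPM in old NACET replicate 1 and to at most 1.64 CPM in every other library, and genes of the ciliary body and iris to 32.0 CPM in old NACET replicate 3, the library with the lowest Lrat, Rgr and Ttr. The part of these tissues in the result was not tested.

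Old and young mice under NACET differed in the same direction. Of 9 genes tested (Slc45a2 was under the filter on low counts), all 9 were lower in old mice and 2 were called by edgeR: Ttr with a log2 change of -0.92 (SE 0.25, adjusted p = 0.0417) and Rdh5 with -0.64 (SE 0.18, adjusted p = 0.0489). Over all genes 4.88% of 16276 were called, and DESeq2 called 2 of the 10, Ttr and Rdh5, beside 7.28% of 18209 genes. Corneal genes were lower here too, with Krt5 at -4.64 (SE 0.92) and Dsp at -4.69 (SE 0.92) on the log2 scale. Plvap went the other way and was higher in old mice (log2 change 0.58, SE 0.11, adjusted p = 0.00759 in edgeR). The part of these tissues was not tested. Rpe65 differed by -0.80 (SE 0.23, adjusted p = 0.0586 in edgeR), Lrat by -0.89 (SE 0.27, adjusted p = 0.0663) and Rgr by -0.71 (SE 0.25, adjusted p = 0.106), and the median of the 9 was -0.86, beside 0.00 over all genes. With labelled sex as a covariate, or in labelled males alone, 0 of the 9 were called and their median was -0.52 and -0.53. Over all genes, 1099 of 16276 and 1006 of 16493 were called in these fits. Leaving out young NACET replicates 4, 5 or 6 or old NACET replicates 1, 2 or 6 also left 0 of the 10 called, beside 478 to 922 over all genes.

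The difference between the NACET effects at the 2 ages was tested as an interaction over all 20 libraries. All 10 values were negative, from -0.60 for Tyrp1 (SE 0.94) and for Slc45a2 (SE 0.59) to -1.99 for Rpe65 (SE 0.53, adjusted p = 0.186 in edgeR), with a median of -1.27. In edgeR 0 of the 10 were called (5 had an unadjusted p under 0.05), beside 0% of 16993 genes. Before adjustment 1052 genes were under 0.05, and DESeq2 called 86, none of them among the 10. The 7 corneal genes tested were all negative too, with a median of -8.25 and 0 called by edgeR, and their part was not tested. Without young control replicate 4, edgeR called 5 of the 10, beside 0.192% of 17145 genes, with log2 values of -2.86 for Rpe65 (SE 0.43), -2.71 for Ttr (SE 0.43), -2.70 for Lrat (SE 0.45), -2.52 for Rgr (SE 0.43) and -1.97 for Rdh5 (SE 0.31), at adjusted p-values of 0.0125 to 0.0179. The library left out stands apart on most of the same 10 genes, so this fit is no independent test of them. Leaving out any other single library called 0 of the 10, beside 0 to 77 over all genes.

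Other genes of the pigment epithelium were read from a list of 14. Of these, 0 were called in aging and 0 in NACET at either age by edgeR, and 3 of 13 tested were lower in old than in young mice under NACET, where 4.88% of all genes were called in either direction, namely the proton-linked lactate transporter Slc16a8 (log2 change -1.03, SE 0.23, adjusted p = 0.0139), the tetraspanin Tspan10 (-0.88, SE 0.18, adjusted p = 0.00983) and the membrane frizzled-related protein Mfrp (-0.64, SE 0.15, adjusted p = 0.0247). In old mice under NACET 10 of 13 tested were lower than in controls, with a median log2 change of -0.52. Of the 13, 8 had an unadjusted p under 0.05, beside 2393 of 16562 genes. The median r of the list with Rpe65 was 0.72. It was highest for Ermn (0.93), Cdh3 (0.91), a cadherin, and Slc6a20a (0.89), an amino acid transporter, while Rrh, Krt18, Dapl1 and Sostdc1 had r between -0.10 and 0.19. These 4 low genes were named after their values were seen.

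Of 9 other melanosome genes in the files, 8 of them tested, the exchanger Slc24a5 was lower in old NACET than in old control mice (log2 change -0.50, SE 0.10, adjusted p = 0.0456 in edgeR) and than in young NACET mice (-0.34, SE 0.09, adjusted p = 0.0393), and no other was called in any comparison. Their median r was 0.54 with Dct and 0.32 with Rpe65. Pmel, the fibril protein of the melanosome, had r of 0.93 with Dct and 0.24 with Rpe65, and Mlana 0.86 and 0.18. Oca2, a melanosomal anion channel, went the other way, with r of 0.54 with Dct and 0.80 with Rpe65. Mitf and Mreg followed neither gene, with r of 0.15 and 0.01 with Rpe65 and of -0.11 and 0.03 with Dct. Pmel, Mlana, Mitf and Mreg were named after their values were seen.

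Most of the retinal side of the visual cycle did not follow. Of 9 genes in Müller glia and photoreceptors, the median r with Rpe65 was -0.10, and Rlbp1, Rdh8, Rdh12, Rdh11 and Abca4 lay between -0.32 and 0.09. Rdh10, a retinol dehydrogenase, had r of 0.64 with Rpe65. Rbp3, the photoreceptor retinoid carrier, was lower in old than in young mice under NACET (log2 change -0.49, SE 0.09, adjusted p = 0.00357 in edgeR). The Müller glia list had a median r of 0.09 with Rpe65 and the neural retina list 0.06. The corneal list had r of 0.36 to 0.55 with Rpe65, the ciliary and iris list 0.01 to 0.17 and the lens list -0.03 to 0.14.

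**Figure D4:**
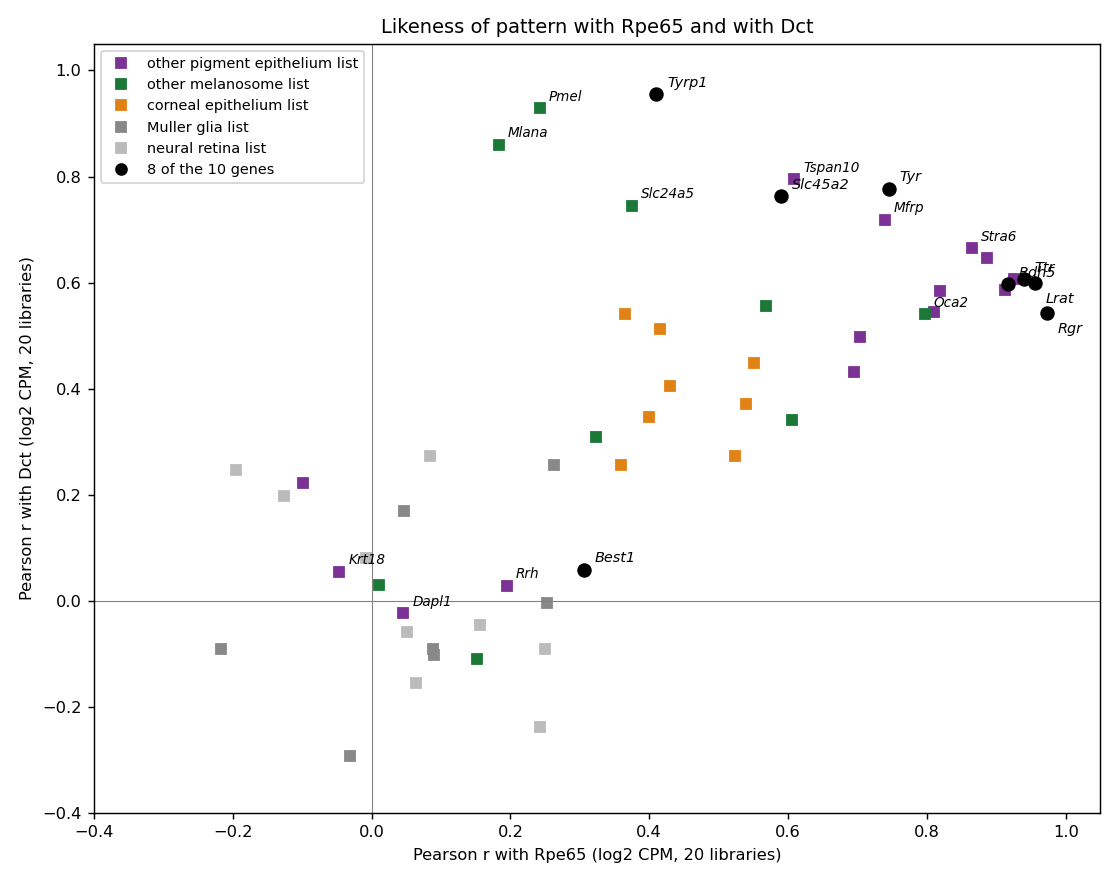
Pearson's r with Rpe65 (horizontal axis) and with Dct (vertical axis) of log2 CPM over 20 libraries, for 8 of the 10 genes (circles) and for genes of 5 lists (squares). Rgr, Lrat, Ttr and Rdh5 lie at the right beside most other pigment epithelium genes, Tyrp1 at the top beside Pmel and Mlana, and Best1, Rrh, Krt18 and Dapl1 near the retinal genes.

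Among 14971 other genes with a mean of at least 1 CPM, those most like the 10 genes by mean r over 20 libraries included Car12 (0.78), Thbs1 (0.78), Col8a2 (0.78), Slc6a20a (0.77), Tmem98 (0.75), Col8a1 (0.75), Pon1 (0.75), Cdh3 (0.74) and Ermn (0.74). The median of all these genes was 0.02 and the 99th percentile 0.43. With Rpe65 alone the highest were Pon1 (0.95), a paraoxonase, Col8a1 (0.93), a collagen chain of basement membranes, Sema3c (0.93), a semaphorin, Ermn (0.93) and Car12 (0.92), a membrane carbonic anhydrase. Car12 was at 1.80, 1.77, 1.26 and 5.58 CPM in the young controls and Pon1 at 0.928, 0.564, 0.436 and 2.98 CPM. Both had the step between replicate 4 and the other 3 that the pigment epithelium genes had. These are correlations over libraries that share groups, tissue and depth, and carry no test.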

How the data were processed

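Gene expression was measured by polyA RNA-seq in 20 retinas, grouped by the library names in the labels. The deposited values are raw counts per gene. Per the labels and the methods, the authors made TruSeq libraries, aligned reads to mm9 with TopHat2 2.1.0 and Bowtie, and counted exonic reads with HTSeq 0.11.2, without strand. The annotation is not given in the sources used here. Of all reads, 14.1% to 20.5% lay outside genes, 1.09% to 1.20% were ambiguous and 6.65% to 7.92% aligned more than once, and a row without a gene name, left out, held at most 0.00218% of gene counts.

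CPM is counts scaled to 1000000 gene counts per library. Groups were compared with edgeR 4.0.16 in R 4.3.3 (TMM, default expression filter, quasi-likelihood, Benjamini-Hochberg over all genes tested, threshold 0.05), fitted on each pair of groups, and on 20 libraries for the interaction. DESeq2 1.42.0, the tool of the study, was an alternative. The edgeR script was tested on simulated data. Correlations used log2 CPM with a prior count of 1, and ratios exact permutation tests. Within groups, each pair of libraries differed beyond sampling noise (chi-square per degree of freedom of 2.52 or more), and each mouse, by 1 retina, was a replicate. Positions came from the GENCODE annotation of mm9. The 10 genes, the lists of other tissues and the tests were chosen with earlier results of these data known. Beyond the 10 genes, those named were the list genes called, the 2 of each list most like the 10 genes, where they bear on a result, and the genes most like them in pattern. Alternatives were the normalization, filter, tool, covariates, replicate block, samples in the fit and leaving out each library. The results of 1 gene that this rule names are not reported here.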

Additional observations from a re-analysis of the deposited data

Results flagged for a closer look

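In groups of 4 to 6 libraries, the highest and the lowest value were compared with their nearest neighbour by Dixon's ratio. Of 80 sets of values, 18 exceeded the critical value. Chance gives about 1 in 20 for independent sets of normally distributed values. These sets share libraries and genes, so the 18 are not separate results and are not set against that rate. Most lay in young control replicate 4. It had 15.7 CPM of Rpe65 against 3.06 to 4.38 in the other 3 young controls, 14.8 of Lrat against 2.00 to 2.94, 62.3 of Rgr against 13.1 to 17.7, 69.0 of Ttr against 13.0 to 20.2 and 15.1 of Rdh5 against 4.38 to 5.60. It also had 32.0 CPM of Tyrp1 against 1.61 to 4.69, 5.77 of Tyr against 0.618 to 0.827 and 60.1 of Dct against 6.16 to 12.2. Summed CPM in this library was 177.6 for the 6 pigment epithelium genes, 99.1 for the 4 melanin genes, 145.8 for other melanosome genes, 31.6 for choroid and stroma genes and 50.5 for ciliary body and iris genes.

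Outside that library, other pigment epithelium genes summed to 138.0 CPM in old NACET replicate 1 against 93.5 to 108.8 in its group, with Dapl1 at 54.9 CPM there, and lens genes to 888.8 against 0.683 to 1.02. Ciliary body and iris genes summed to 32.0 CPM in old NACET replicate 3 against 3.61 to 10.7, choroid and stroma genes to 25.1 in young NACET replicate 3 against 10.4 to 14.8, and corneal genes to 438.7 in old control replicate 2 against 23.0 to 60.8. The causes were not tested.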

How the results depend on the processing

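Of 49 log2 changes of the 10 genes over the comparisons, 40 kept their sign under every alternative and 9 did not. In aging, Tyrp1 and Dct changed to 1.48 and 1.23 with labelled sex as a covariate, to 1.47 and 1.23 in labelled males and to 0.31 and 0.32 with the replicate block. Leaving out single libraries gave -0.87 to 1.42 for Tyrp1, -0.45 to 1.26 for Dct and -0.043 to 1.70 for Tyr. In young mice under NACET, the labelled males gave 0.50 for Tyrp1, 0.47 for Dct and 0.25 for Slc45a2, the batch tag as a covariate gave -0.56 for Best1 and 0.10 for Slc45a2, and the age in the title -0.15 and 0.067. Leaving out single libraries there gave -1.43 to 0.61 for Tyrp1, -0.22 to 1.53 for Tyr, -1.01 to 0.58 for Dct and -0.60 to 0.48 for Slc45a2, each highest value without young control replicate 4. In the interaction Tyrp1 ran from -2.27 to 0.025, the highest without old control replicate 1. The causes were not tested.

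Counts of the 10 genes called moved as follows. In aging they were 0 to 5 without single libraries and 4 in labelled males. In old mice under NACET they were 1 with no filter (Ttr) and 1 by DESeq2 (Tyr). In young mice and in the interaction they were 0 to 5 without single libraries, the 5 without young control replicate 4. In age under NACET they were 0 to 3 without single libraries, against 2 with all, and 0 with the robust fit, with labelled sex as a covariate, in labelled males and with all 4 groups in one fit. With the replicate block 6 genes were called there, while the block called 0 elsewhere; replicate numbers only name the mice (the same-numbered correlations ran from -0.16 to 0.12), and not every library was nearest to its own number, so no pairing is shown. Over all genes the block called 163 in aging (234 without), 17 in NACET in old mice (90) and 422 in age under NACET (795). NACET in old mice gave 375 calls with DESeq2, 150 with no filter, 1 with all 4 groups in one fit, 1 with 668 days or not as a covariate, 0 in 668-day mice and 8 to 110 without single libraries. Aging gave 721 with DESeq2, 79 with labelled sex as a covariate, 69 in labelled males, 461 with all 4 groups and 113 to 414 without single libraries. Age under NACET gave 1326 with DESeq2 and 478 to 922 without single libraries. NACET in young mice gave 6 with the block, 1 in labelled males and 0 to 8 without single libraries, and the interaction 86 with DESeq2, 49 with no filter and 0 to 77 without single libraries. Labelled sex could not be fitted in old mice, who all carry 1 label. The 34 correlated pairs were 29 to 37, the 31 within groups 21 to 34, and the 0 ratio tests 0, under their alternatives. Depth limits Best1 (8 to 37 counts) and Slc45a2 (4 to 26) most.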
